A study of Drosophila melanogaster with 9 samples.

Results

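The Antennapedia complex is the gene cluster on arm 3R of Drosophila melanogaster that holds the Hox genes lab, pb, Dfd, Scr and Antp. Its contacts were read from 2 lists of interacting 10 kb bins made by Hi-C, a method in which DNA ends lying close together in fixed nuclei are joined and sequenced. The complex was taken as 3R 2470001-2840000, from lab at the lower end to Antp at the upper end, which is 37 bins or 370 kb. Every listed pair with at least 1 bin in that stretch was included, apart from pairs with 3R 12470001-12810000, the window of the bithorax complex. No pair of either list joined these windows, so the exclusion removed none. This gave 374 of 59303 pairs in the list of heat-shocked cells (HS list) and 127 of 33978 pairs in another list that no label assigns to a sample (unlabelled list).

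The cells were Kc167, an established line from female embryos, which represents 1 line and not the segments of an animal in which these genes are used. Both heat-shock Hi-C libraries came from cells grown at 25 °C and then held at 37 °C for 20 min before fixation, with HindIII as the cutting enzyme, and 1 list, the HS list, covers both libraries. The cells, treatment and number of libraries behind the unlabelled list are not stated in the labels used here, so nothing ties the differences between the lists to temperature. Each pair carries a score that is -2 or lower, of unstated scale. Ranks by score are within a list, and scores of both lists are printed as deposited although it is not known whether they share a scale. Neither list has replicates or read counts, the sequencing depth is unknown, and the lists could not be tested against each other. Intervals are exact 95% intervals for counting error that take every pair to be independent. However, neighbouring pairs share their surroundings, and some pairs are counted in both lists. A pair missing from a list is known only not to have reached -2 there.

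Hox genes encode homeodomain transcription factors that give segments along the body axis their identity, and their order on the chromosome follows the order of the body parts they act in. In cells that do not use them they are kept silent by Polycomb group proteins, which compact the chromatin of the cluster. In the Release 6 annotation 43 genes lie from lab to Antp, of which 19 are protein coding, 16 are long noncoding RNAs, 4 are tRNAs, 2 are miRNAs and 2 are 7SL RNAs. The gene lab acts in the head and midgut and is followed by the cuticle genes Edg84A and Ccp84Aa to Ccp84Ag. Next come pb, needed for adult mouthparts, the homeobox genes zen2, zen and bcd, of which bcd sets up the anterior of the embryo, and Ama. Then follow mir-993, Dfd, which specifies jaw segments, mir-10, and Scr, which acts in the labial segment and prothorax. The pair-rule gene ftz lies between Scr and Antp, and Antp, which specifies thoracic segments, closes the cluster. Positions below are those of the lists, whose arm limits match Release 5 (dm3). As the annotation is of another release, no gene was assigned to a single bin, and bins are placed by their distance from the lab or the Antp end.

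A single bin near the Antp end carried every listed contact within the complex. All 10 pairs with both bins in the complex in the HS list, and all 7 in the unlabelled list, had 3R 2790001-2800000 as their upper bin. It is bin 33 of 37, the fifth from the Antp end, and the pairs joined it only to bins on its lab side. The complex as a whole had 10 of 630 possible pairs listed in the HS list (1.59%, 0.76 to 2.90%) and 7 in the unlabelled list (1.11%, 0.45 to 2.28%), where the arm had 1.86% and 1.25% at the same distances. With that bin set aside, the other 36 bins gave 0 of 596 possible pairs in each list, which allows a share of up to 0.503%. This 0 restates that every listed internal pair had that bin, and setting aside the richest bin by itself favours a low count. The bin itself was paired with 10 of its 34 possible partners in the complex in the HS list (29.4%, 15.1 to 47.5%) and with 7 in the unlabelled list (20.6%, 8.70 to 37.9%), against 1.84% and 1.34% along the arm at these distances. The bin was picked for having most partners, which by itself favours shares above those of the arm.

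The 7 internal pairs of the unlabelled list were all found again in the HS list. From the lab end, their lower bins started at 2510001, 2570001, 2580001, 2600001, 2630001, 2660001 and 2680001, so that they spanned 280 kb to 110 kb. The pair from 2510001 scored -3.16 in the HS list and -3.31 in the unlabelled list, where it was the strongest inside the complex. The pair from 2580001 was the strongest in the HS list with -3.96 and scored -2.25 in the unlabelled list. The pairs from 2570001, with -2.81 and -2.05, and from 2680001, with -2.92 and -2.63, were also listed in both. So were those from 2600001 (-2.49 and -2.57), 2630001 (-2.14 and -2.23) and 2660001 (-2.13 and -2.48), all close to the limit of -2.

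The HS list held 3 further internal pairs. The longest reached 320 kb from the first bin of the region, 2470001-2480000 at the lab end, with a score of -3.43. The others came from 2670001-2680000, with -2.50, and from 2700001-2710000, with -2.40 and the shortest internal span, 90 kb. Internal pairs therefore numbered 10 and 7, a ratio of 1.43 whose interval, 0.49 to 4.42, holds no difference and a 4-fold one alike. That interval takes the counts as separate, although 7 of the pairs are in both lists. In lists of equal length each held 7 internal pairs.

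The number of internal pairs was within the range of other windows of the arm. Of the windows with as many pairs or more, 1 in each list had them all on 1 bin. Along 3R, 73 consecutive windows of 370 kb that do not overlap the complex held a median of 9 internal pairs in the HS list (0 to 56) and 5 in the unlabelled list (0 to 45). In the HS list 35 of these windows held at least 10 internal pairs, and all of the pairs passed through 1 bin in 1 of them. The median share that touched the window's richest bin was 50%. In the unlabelled list 32 windows held at least 7 internal pairs, again with 1 in which all passed through 1 bin, and the median share was 42.7%. When the bin with most internal pairs was left out of each of the 73 windows in the same way, a median of 3 internal pairs was left in the HS list and 2 in the unlabelled list, and 20 windows had 0 left in each list, of which 8 and 12 had none to begin with. The bithorax window, the site of the other Hox cluster of the fly, held 3 internal pairs in the HS list and 18 in the unlabelled list, a ratio of 0.17 (0.03 to 0.57). The Antennapedia complex had 1.43 (0.49 to 4.42), and these ratios were not tested against each other.

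**Figure D1:**
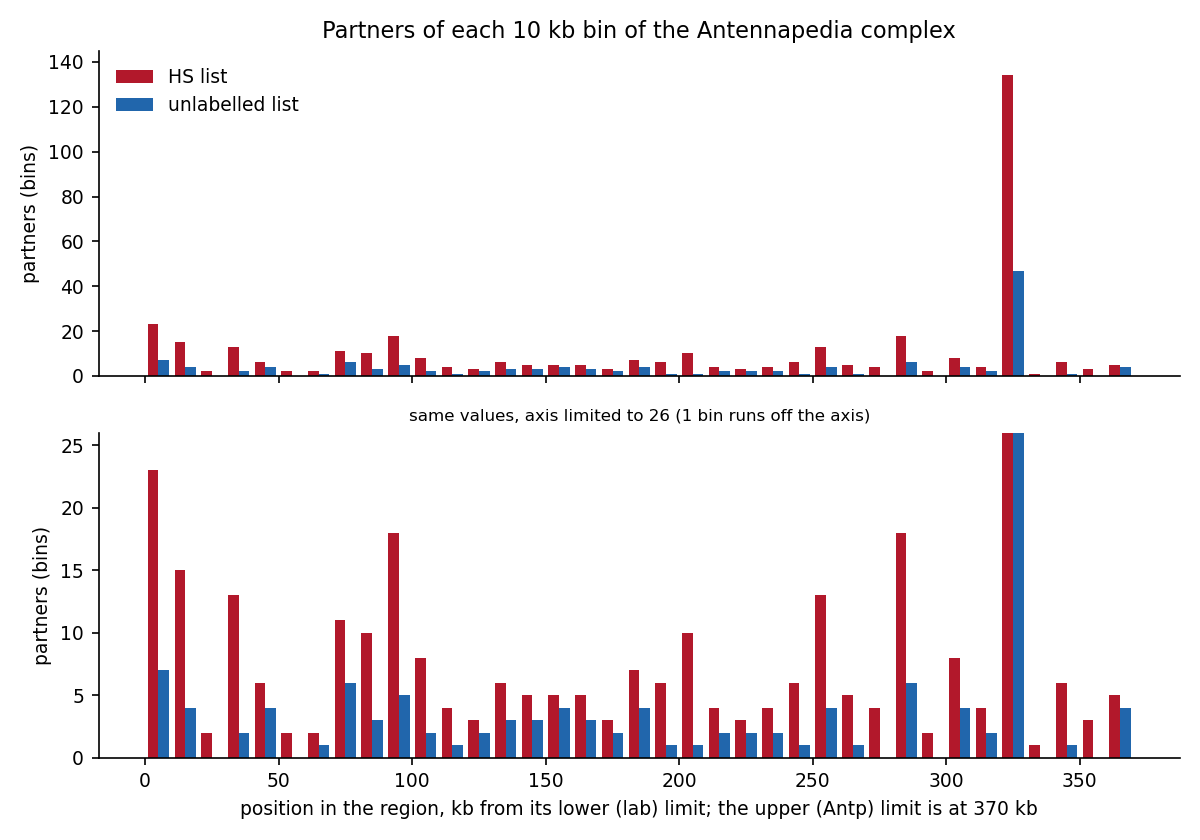
Number of partner bins (vertical axis) of each of the 37 bins of the Antennapedia complex, by position in kb from the lab end, in the HS list (red) and the unlabelled list (blue); the lower panel repeats the values on an axis limited to 26. The bin at 3R 2790001 has 134 and 47 partners, and no other bin exceeds 23 and 7.

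The same bin led the complex in contacts along the arm. It had 134 partners in the HS list and 47 in the unlabelled list, which is 35.8% (31.0 to 40.9%) and 37.0% (28.6 to 46.0%) of all pairs of the complex. The bins on either side of it had far fewer. On its lab side 2780001-2790000 had 4 partners in the HS list and 2 in the unlabelled list, near the medians of 5 and 2 for bins of the complex. On its Antp side 2800001-2810000 had 1 and 0. Among the 2661 bins of arm 3R used in either list it ranked 25 in the HS list and 12 in the unlabelled list. Among bins of all arms it ranked 56 and 73, so it was 1 of the 320 bins with at least 50 partners in the HS list but not of the 65 in the unlabelled list. What sets the number of partners of such a bin apart from that of its neighbours was not tested.

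The bins next to it in rank in the HS list were bins 1, 10, 29 and 2. The first bin at the lab end, 2470001-2480000, had 23 partners in the HS list and 7 in the unlabelled list. Bin 10, 2560001-2570000, had 18 and 5, and bin 29, 2750001-2760000, had 18 and 6. Bin 2, 2480001-2490000, had 15 and 4. Bin 8, 2540001-2550000, was among the 5 richest bins of the unlabelled list with 6 partners, and had 11 in the HS list. The median bin of the complex had 5 partners in the HS list and 2 in the unlabelled list, against 7 and 3 for bins of arm 3R. At most 5 partners were found for 19 of the 37 bins in the HS list and for 33 in the unlabelled list, where 6 bins had none. The numbers of partners in the lists had a Spearman rho of 0.74 across the 37 bins, which share the arm and the lists and are not replicates.

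All 37 bins had more partners in the HS list, where 79.4% of the bins used on arm 3R had more and 14.7% fewer, and 70.8% and 20.5% of those on all arms. The largest difference was at the bin 2790001-2800000, with 87 more, and the median difference was 3. The HS list is the longer, which by itself favours such a count. When the HS list was cut to its strongest pairs at the length of the unlabelled list, 26 of the 37 bins (70.3%) had more partners, 6 had fewer and 5 the same number. The share with more was 46.0% of 2606 bins on arm 3R and 38.5% of 10864 bins over all arms. These shares leave out bins with no partner in either list, while all 37 bins of the complex were counted.

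Pairs of the complex were 2.94 times as many in the HS list (2.40 to 3.63), a ratio above that of the rest of arm 3R, 2.08 (2.02 to 2.14). It did not rest on the richest bin, for which the ratio was 2.85 (2.03 to 4.06), against 3.00 (2.32 to 3.91) for the other 36 bins, with 240 and 80 pairs. The flanks of equal length had lower ratios. On the centromere side, 3R 2100001-2470000 had 490 and 318 pairs, a ratio of 1.54 (1.34 to 1.78), and on the telomere side, 2840001-3210000 had 688 and 370, a ratio of 1.86 (1.64 to 2.12). In lists of equal length the ratio of the complex was 1.90 (1.52 to 2.37), and that of the rest of the arm 1.21 (1.17 to 1.24). Without bins of 50 or more partners the ratios were 2.34 (1.76 to 3.13) and 1.36 (1.31 to 1.41). In both lists the complex had fewer pairs than either flank. Its 374 pairs in the HS list were near the median of 368 over the 73 windows of the arm, of which 37 had fewer and 36 more. Its 127 in the unlabelled list were below the median of 185, with 18 windows that had fewer and 54 more.

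The additional pairs lay beyond 500 kb. Up to that distance, 31 pairs left the complex in the HS list and 31 in the unlabelled list, a ratio of 1.00 (0.59 to 1.70), where the rest of the arm had 1.27 (1.20 to 1.35). Over 500 kb to 1 Mb there were 108 and 31, a ratio of 3.48 (2.32 to 5.38), against 1.69 (1.59 to 1.80) for the rest of the arm. Over 1 to 2 Mb there were 135 and 26, a ratio of 5.19 (3.39 to 8.23), against 2.81 (2.63 to 3.01). Between 500 kb and 2 Mb the intervals of complex and arm do not overlap. Over 2 to 5 Mb the complex had 60 and 13 pairs, a ratio of 4.62 (2.51 to 9.17), and the arm 2.95 (2.78 to 3.13), with overlapping intervals. Over 5 Mb it had 30 and 19, a ratio of 1.58 (0.86 to 2.97), against 2.13 (2.01 to 2.27).

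The median distance of pairs leaving the complex was 1.16 Mb in the HS list (1.09 to 1.23 Mb) and 0.995 Mb in the unlabelled list (0.89 to 1.21 Mb), with overlapping intervals. For the rest of arm 3R it was 1.84 Mb (1.79 to 1.89 Mb) and 1.21 Mb (1.16 to 1.27 Mb). Most pairs stayed near: 78.8% (74.3 to 82.9%) of those leaving the complex in the HS list and 80.8% (72.6 to 87.4%) in the unlabelled list ended within 2 Mb of its edge. The share over 5 Mb long was 8.24% in the HS list, against 20.6% on the rest of the arm, and 15.8% and 20.1% in the unlabelled list. The complex lies under 3 Mb from the start of the arm's coordinates at the centromere end, so it has distant partners on 1 side only. Counted over the possible pairs of its own bins, the listed share over 5 Mb was 0.45 times that of arm 3R in the HS list. In the unlabelled list it was 0.54 times.

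Of possible pairs over 200 to 500 kb that left the complex, 1.33% were listed in each list, where arm 3R had 1.88% in the HS list and 1.65% in the unlabelled list at the same distances. Over 500 kb to 1 Mb the share was 2.92% in the HS list, against 1.95% on the arm, and 0.838% in the unlabelled list, against 1.13%. Over 1 to 2 Mb it was 1.82%, 1.42 times the arm, and 0.351%, 0.78 times. Over 2 to 5 Mb it was 0.444%, 0.71 times the arm, and 0.0963%, 0.46 times. Without the bin at 2790001 the shares were lower by construction, since the rich bins of the arm were kept. The other 36 bins then had 0.28 times the share of the arm over 200 to 500 kb in the HS list and 0.35 times in the unlabelled list, 0.83 and 0.39 times over 500 kb to 1 Mb, and 1.10 and 0.62 times over 1 to 2 Mb. Over 500 kb to 1 Mb, 50% of the possible partners of the bin at 2790001 were listed in the HS list and 15.0% in the unlabelled list. The arm had 1.95% and 1.13%, but this bin was picked for having most partners, which by itself favours shares above the arm.

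**Figure D2:**
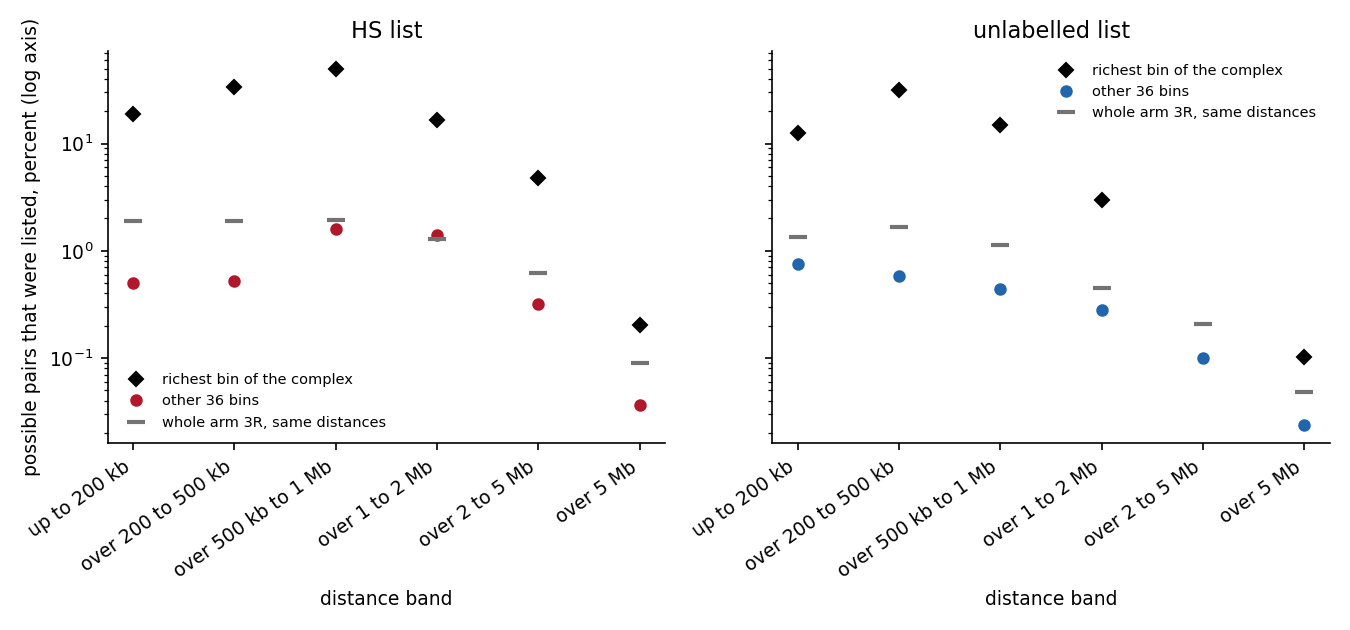
Percent of possible bin pairs that were listed (log axis) by distance band, for pairs leaving the complex from its richest bin (diamonds), from its other 36 bins (circles) and for all of arm 3R at the same distances (bars), in each list. The bars keep the arm's rich bins while the circles leave out the complex's richest bin, so the circles are low by construction. The diamonds show a bin picked for having most partners, so the choice favours high values. The richest bin had no pair in the unlabelled list over 2 to 5 Mb, so no diamond is drawn there.

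The contacts of 3R 2790001-2800000 had a near part on the lab side that was largely common to the lists, and a farther part that was larger in the HS list. Over 210 to 500 kb on its lab side, which takes in the lab-side bins of the complex and the chromatin beyond lab, 16 of 30 bins were partners in each list, and 13 were the same. With so many of the 30 bins listed, some overlap would arise at random, and its size was not tested. On the other side of the bin, past Antp, 4 and 2 of 30 bins were partners at these distances. From 510 to 1500 kb on both sides together, 78 of 200 bins were partners in the HS list (39.0%, 32.2 to 46.1%) and 20 in the unlabelled list (10.0%, 6.22 to 15.0%), of which 15 were in both. Over 2 to 5 Mb it had 18 partners in the HS list and 0 in the unlabelled list. Partners lay on both sides, 70 below and 64 above in the HS list and 29 and 18 in the unlabelled list. The nearest was 70 kb away in the HS list and 90 kb in the unlabelled list.

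**Figure D3:**
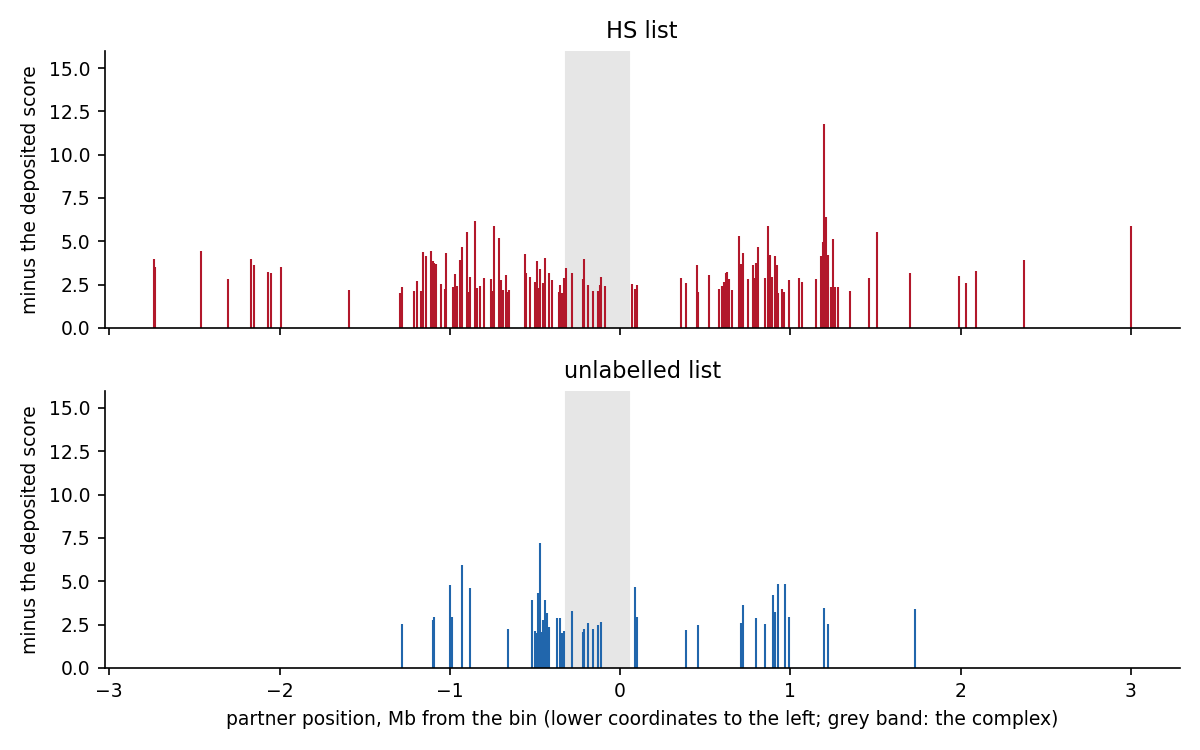
Partners of the bin 3R 2790001-2800000 by signed distance in Mb (horizontal axis) and minus the deposited score (vertical axis), for the HS list (top) and the unlabelled list (bottom); the grey band is the complex, and 10 and 2 partners over 3 Mb away are not drawn. Partners crowd between 0.5 and 1.5 Mb on both sides in the HS list, 78 against 20 in the unlabelled list.

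Its strongest pair, with 3990001-4000000 at 1.2 Mb, was also the strongest of any bin of the complex in the HS list. It scored -11.8 there and -3.43 in the unlabelled list. The pair with 16170001-16180000, 13.38 Mb away, was the strongest that only the HS list held, with -8.24. In the unlabelled list the strongest pair of this bin joined it to 2320001-2330000, 470 kb below, with -7.18, and scored -3.39 in the HS list.

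At the lab end, the bin 2470001-2480000 held 2 of the 5 strongest outward pairs of the HS list. It was joined to 1540001-1550000, 0.93 Mb below, with -9.19 in the HS list and -3.22 in the unlabelled list. With 1450001-1460000, 1.02 Mb below, it scored -7.73 and -5.11. Bin 25, 2710001-2720000, was joined to 7150001-7160000, 4.44 Mb away, with -7.69 in the HS list alone, and bin 15, 2610001-2620000, to 1540001-1550000, with -7.65, likewise alone.

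Of the 5 strongest outward pairs of the unlabelled list, 4 were not in the HS list. Absence was common: 69 of all 120 outward pairs of the unlabelled list were not in the HS list. Over all arms 32.2% of the pairs of the unlabelled list were in the HS list. A pair of neighbouring bins in the middle of the complex, 2620001-2630000 and 2610001-2620000, were joined to 4690001-4700000, about 2 Mb above, with -9.31 and -8.62, and neither pair was in the HS list. The third, between 2530001-2540000 and 23180001-23190000, spanned 20.65 Mb, scored -7.25 and was in the unlabelled list alone, as was the fifth, between 2780001-2790000 and 1540001-1550000, with -7.07. The longest pairs of the complex reached 24.65 Mb in the unlabelled list and 22.92 Mb in the HS list, with scores of -2.72 and -2.50.

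**Figure D4:**
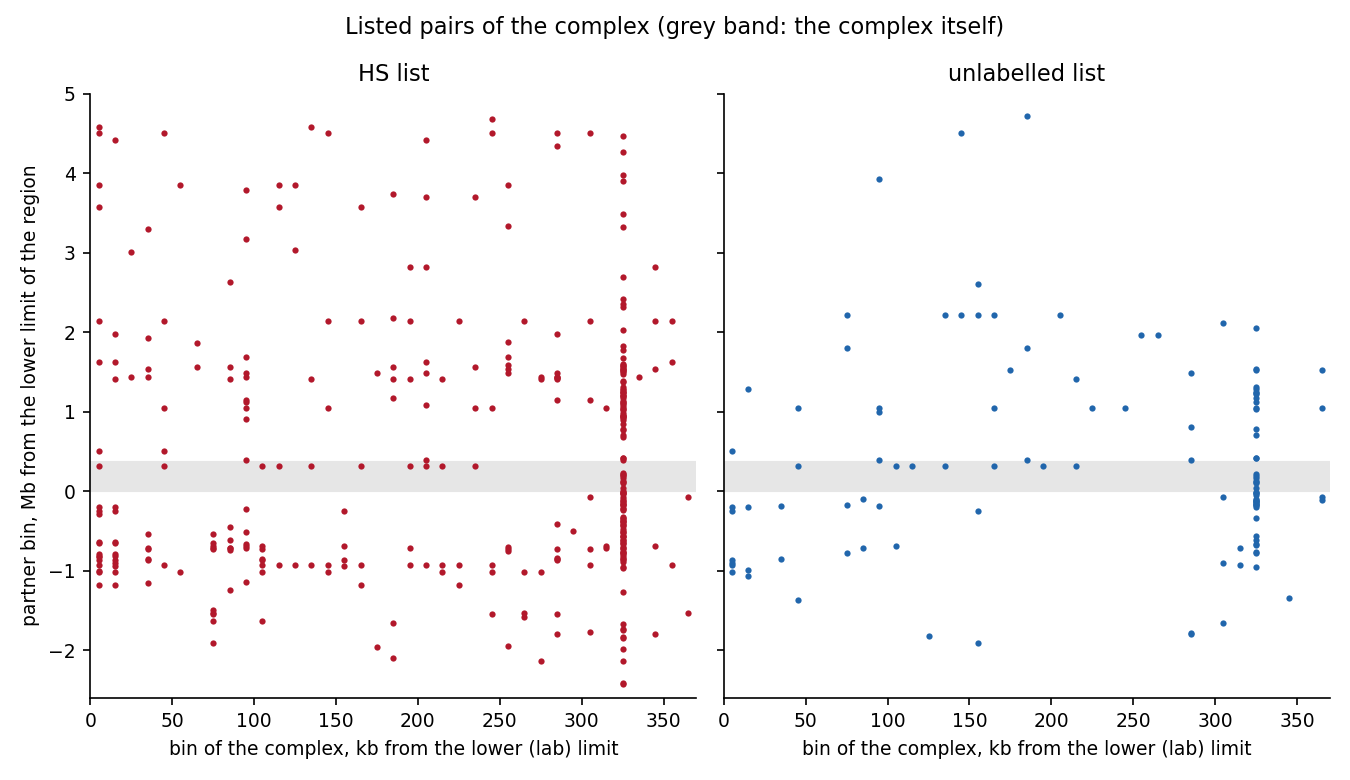
Each point is a listed pair: the bin of the complex in kb from the lab end (horizontal axis) and its partner in Mb from the same point (vertical axis), with the complex as a grey band; 31 heat-shock and 19 pairs of the unlabelled list with partners above 5 Mb are not drawn. The vertical row near the Antp end is the bin at 2790001, and horizontal rows are outside bins joined to many bins of the complex.

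A few bins outside were paired with many bins of the complex. Those named here were picked for their number in the HS list, which by itself favours a higher number there. The bin 1540001-1550000, 0.93 Mb below lab, was paired with 15 bins of the complex in the HS list and 2 in the unlabelled list. These 15 ran from 2470001 at the lab end to 2820001 near the Antp end. The bin 4610001-4620000, 1.78 Mb above the complex, was paired with 10 and 0, 1450001-1460000 with 9 and 1, 3880001-3890000 with 8 and 1, 1600001-1610000 with 7 and 1, and 1740001-1750000 with 7 and 0. The first 3 of these had many partners everywhere in the HS list, 126, 176 and 148, of which the complex made up 11.9%, 5.68% and 6.08%. Their totals were also lower in the unlabelled list, at 25, 29 and 8.

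The reverse was seen at 4690001-4700000, 1.86 Mb above the complex, which was picked for its number in the unlabelled list. It was paired with 6 bins of the complex in the unlabelled list, from 2540001 to 2670001, and with none in the HS list, although its total number of partners was similar, 20 and 18. The bin 3520001-3530000, 0.69 Mb above, was paired with 5 bins in each list. Just past Antp, 2860001-2870000 was paired with 3 in each. The bin 2270001-2280000, 0.2 Mb below lab, was paired with 2 in the HS list and 3 in the unlabelled list, and 3990001-4000000 with 1 and 3. Most outside partners met only 1 bin of the complex, 169 of 221 in the HS list and 74 of 92 in the unlabelled list. The lists had 52 outside partners in common, 23.5% of the former and 56.5% of the latter.

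**Figure D5:**
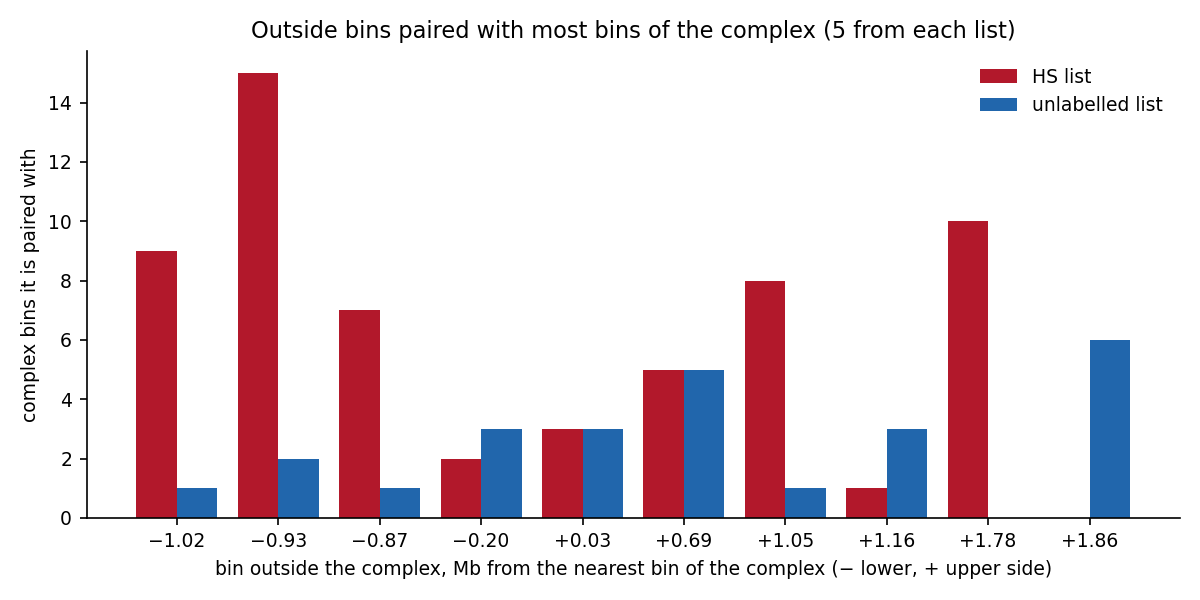
Number of bins of the complex (vertical axis) paired with the 5 outside bins that had most in each list (10 in all, ties going to the lower coordinate), ordered by position and labelled with the distance in Mb from the nearest bin of the complex. Values of the HS list (red) exceed those of the unlabelled list (blue) at 5 of these 10 by 6 or more, and the bin 1.86 Mb above has 0 and 6.

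Pairs that left the complex and ended between 1 and 2 Mb on the arm, toward the centromere from lab, numbered 110 in the HS list and 22 in the unlabelled list, a ratio of 5.00 (3.14 to 8.30). Between 2 and 3 Mb, where the complex itself lies, such pairs numbered 42 and 32, a ratio of 1.31 (0.81 to 2.15). Between 3 and 4 Mb there were 70 and 25 pairs, a ratio of 2.80 (1.75 to 4.61). From 4 to 5 Mb there were 43 and 13, a ratio of 3.31 (1.75 to 6.70), and from 5 to 6 Mb 12 and 1. From 6 to 7 Mb there were 25 pairs in the HS list and 2 in the unlabelled list. The bin 6970001-6980000 was paired with 6 bins of the complex in the HS list and 1 in the unlabelled list. Its total numbers of partners were 363 and 64. Pairs to the centromere side numbered 173 in the HS list and 53 in the other, a ratio of 3.26 (2.39 to 4.53). Those to the telomere side numbered 191 and 67, a ratio of 2.85 (2.15 to 3.82), with overlapping intervals.

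The lists had 58 pairs of the complex in common, which is 45.7% (36.8 to 54.7%) of its pairs of the unlabelled list and 15.5% (12.0 to 19.6%) of its HS pairs. Over all arms these shares were 32.2% and 18.4%, and on the rest of arm 3R 28.1% (27.1 to 29.2%) and 13.5% (13.0 to 14.1%). The bin at 2790001 held 36 of the 58. Of its 47 pairs of the unlabelled list 76.6% (62.0 to 87.7%) were in the HS list, against 22 of 80, or 27.5% (18.1 to 38.6%), for the other bins of the complex. Up to 1 Mb the share was 79.5% (63.5 to 90.7%) for this bin, 50% (31.3 to 68.7%) for the other bins and 45.5% (43.8 to 47.2%) for the rest of the arm. A bin with more of its possible partners in the HS list is more likely to show matches. Over 500 kb to 1 Mb that list held 50% of the possible partners of this bin, against 1.61% for the other bins of the complex. Over 1 Mb the other bins shared 14.0% (5.82 to 26.7%), and the rest of the arm 13.5% (12.5 to 14.6%). In lists of equal length the shared part of the complex was 29.1% (21.4 to 37.9%), and without bins of 50 or more partners 22.5% (13.5 to 34.0%).

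Scores of the 58 shared pairs had a Spearman rho of 0.39 across pairs, which are not independent. Shared pairs had a median distance of 0.585 Mb.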

How the data were processed

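The study deposited Hi-C and ChIP-seq of Kc167 cells (9 samples). The 2 lists of Hi-C bin pairs were used here, and the 7 ChIP and input samples were not analysed here. Each list gives the arm, the limits of 2 bins of 10 kb and a score as deposited by the authors. The score has no stated base, test or background model, and values are -2 or lower. Per the submitters' processing notes, reads were handled with Bowtie 0.12.7. The sources used here do not state the pair caller, the build or any pooling of reads. Labels of 2 Hi-C libraries name the HS list, and no label names the other.

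Limits of the region came from a rule written for this work. Its members, the lists of named bins and the comparisons were chosen with earlier results of these data known. Named bins and pairs were the 5 with most partners, gain or loss (no bin had a loss), the 5 strongest pairs in each list, the 5 outside bins with most complex bins, and the strongest pairs of 1 list alone. Partners are different bins paired with a bin. Ratios carry exact conditional binomial intervals, shares Clopper-Pearson intervals, and medians order-statistic intervals (95%); the limit on a count of 0 is 3 counts. Possible pairs are all bins at least 20 kb apart among the 2790 bins of 3R. Distance bands, windows of 370 kb and results for the richest bin alone were set after the data were seen. The counting functions were tested on simulated lists. Calculations used Python 3.11.15, pandas 2.3.3, numpy 2.4.6 and scipy 1.17.1.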

Additional observations from a re-analysis of the deposited data

How the results depend on the processing

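Of 43 alternative values for 8 results, 27 lay inside the interval given for the reported value (number of bins, within 1.5 times) and 16 left it. Some of the 27 could not move. Keeping pairs with the bithorax window changed nothing, as no pair joined the windows. Cutting to equal length shortened only the HS list, so values taken from the unlabelled list alone stayed as they were. None turned a ratio below 1, but the ratio of internal pairs fell to 1 (0.30 to 3.34) at equal length, with 7 pairs in each list. The ratio of pairs of the complex moved to 1.90 at equal length and to 2.34 without bins of 50 or more partners. The shared part of its pairs of the unlabelled list was 32.3% in the strongest 50% of each list, 29.1% at equal length, 22.5% without bins of 50 or more partners, 56.7% and 63.0% when both bins could differ by 1 or 2 bins, and 27.5% without the bin at 2790001. Leaving out that bin, chosen after seeing the data, moved the median distances to 1.28 and 1.31 Mb, and leaving out bins of 50 or more partners moved the median of the unlabelled list to 1.41 Mb. Either step left 0 internal pairs, as all pass through that bin, so no internal ratio could be had. The listed share of possible internal pairs was 0.317% among the strongest 50% of the unlabelled list. Widening the region by 30 kb a side gave 16 and 13 internal pairs, of which 14 and 10 passed through that bin.

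No paired analysis was possible because neither list has replicates; leaving out 1 library was not possible either. Depth limits all results: the lists hold no counts.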
